A study of Mus musculus with 30 samples.

Results

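Bone that tumour cells had reached was taken apart, and the mouse cells without GFP were sorted for RNA sequencing. Of 13 such exposed bone libraries, among 30 libraries in the series from bone, lung and brain, 8 held little marrow RNA and are described here. They were chosen by a measured value: S100a8, a calcium-binding protein abundant in neutrophils, had under 1000 CPM (counts per 1000000 counts of the library). The 8 were then divided by Col1a1, which encodes the main chain of type I collagen, at 10000 CPM into 4 collagen-high and 4 collagen-low libraries. Both genes were therefore left out of every result. The collagen-high libraries were Brx50 replicate 1 (29805 CPM of Col1a1) and Brx68 replicates 2, 3 and 6 (10637, 18831 and 11967). The collagen-low libraries were Brx07 replicate 2 (5911), Brx50 replicate 4 (3791) and Brx68 replicates 1 and 7 (7522 and 4451). Per-library values below follow this order. Closest to the Col1a1 border were Brx68 replicate 2 at 10637 CPM and Brx68 replicate 1 at 7522 CPM. For S100a8, the highest member was Brx07 replicate 2 at 166 CPM, and the lowest exposed bone library not chosen was Brx50 replicate 3 at 2275 CPM.

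Brx07, Brx50 and Brx68 are lines of human circulating tumour cells (CTCs) grown in suspension. The mice were female NSG animals, a strain without T, B and NK cells, 6 to 8 weeks old at inoculation and given estrogen by slow-release pellet. Each received 100000 CTCs that carried GFP and luciferase through the left ventricle of the heart. RNA came from 50000 sorted GFP-negative cells per library. The 3 bone controls came from mice without tumour. The sources used here do not say whether these mice had estrogen too. The label of Brx07 replicate 2 names the skull. The labels do not say that libraries came from separate mice, so a p-value covers no more than the spread among libraries, which may in part be technical. The labels name the cells stromal, and the other 5 exposed bone libraries and the controls are used below only for their values.

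The name collagen-low holds only against the other marrow-poor libraries. The bone controls had 8577, 9601 and 4499.7 CPM of Col1a1, so 2 collagen-low libraries lay within the control range and 2 under it. The other 5 exposed bone libraries lay lower still, between 2198 and 3203 CPM. The controls (3024, 4682 and 3946 CPM of S100a8) and these 5 libraries (2275 to 9176 CPM) all exceed the limit that defines the marrow-poor libraries. Marrow RNA takes up part of their CPM. Here and below, levels of other genes in them are therefore not directly comparable with those in the 8 libraries. In the plot of the genes that set the groups, the collagen-high libraries alone lie above 10000 CPM.

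**Figure D1:**
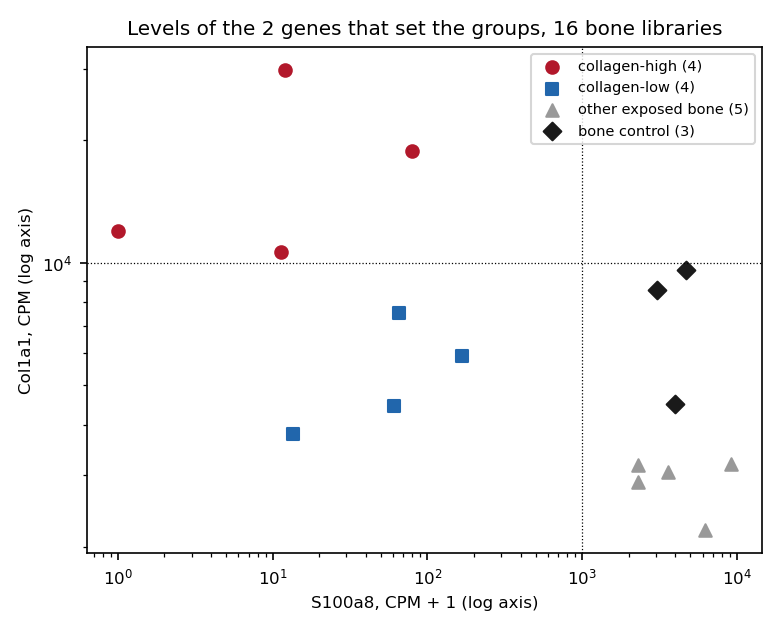
S100a8 (horizontal, CPM + 1, log axis) against Col1a1 (vertical, CPM, log axis), 1 point for each of the 16 bone libraries, with dotted lines at the limits of 1000 and 10000 CPM. The 4 collagen-high libraries (red circles) lie between 10637 and 29805 CPM of Col1a1, and the 4 collagen-low libraries (blue squares) overlap the 3 bone controls (black diamonds) on the vertical axis.

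Fibrous connective tissue is built by fibroblasts, tendon cells and bone-forming osteoblasts, which secrete collagen chains as procollagen. In the endoplasmic reticulum hydroxylases and the chaperone Serpinh1 prepare the chains and the triple helix, proteases and their enhancer Pcolce trim it outside the cell, and lysyl oxidases crosslink the fibrils. Small leucine-rich proteoglycans bind the fibrils and set their width. In bone the same collagen is mineralised, and osteoclasts dissolve it with the protease Ctsk.

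Libraries stood apart within both groups. Total counts ran from 7058861 to 15646947 in the collagen-high group and from 7681435 to 11874773 in the collagen-low group. The number of genes with a count was lowest in Brx68 replicate 1 (14769, collagen-low) and Brx68 replicate 6 (16256, collagen-high), and 21365 to 25688 in the other 6. Genes of other tissues were high in several libraries. The 19 mucous and nasal gland genes with a row of counts summed to 921, 12056, 13707 and 832 CPM in the collagen-high libraries. The collagen-low ones had 28348, 23728, 4548 and 4745 CPM, and the bone controls 5578, 9029 and 8885. Muc5b alone had 896.8, 11848.5, 6690 and 829.5 CPM in the collagen-high libraries and 10066, 20506, 4488 and 4511 CPM in the collagen-low ones. Apart from Brx68 replicate 3 and Brx07 replicate 2, the sums in the 8 libraries were mostly this gene. In the controls most of the sum was Ltf (5536, 7889 and 6821 CPM), which is also a neutrophil gene. Ltf had 0 to 720 CPM in the collagen-high and 49.2 to 1375 CPM in the collagen-low libraries. The 16 skeletal muscle genes summed to 31906 CPM in Brx68 replicate 6 and to at most 1951 CPM in the other 7. The 16 olfactory neuron genes summed to 4547 CPM in Brx07 replicate 2, the skull library, and to at most 583 CPM in the other 7, while 2 of the 5 other exposed bone libraries had 1552.5 and 1627 CPM. The 8 pituitary genes summed to 705 CPM in Brx50 replicate 4 and to at most 78.0 CPM in the other 7, while the same 2 other exposed libraries had 165 and 80.7 CPM. Libraries labelled stromal thus also held genes of other tissues. The coefficient of biological variation was 0.522 among the collagen-high libraries and 0.702 among the collagen-low ones, against 0.138 among the bone controls.

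Of 15864 genes tested with edgeR's quasi-likelihood test, 137 (0.864%) passed an adjusted p of 0.05, 133 (0.838%) with higher and 4 (0.0252%) with lower levels in the collagen-high libraries. Since the libraries were sorted by a matrix gene, a pass says that a gene varied with Col1a1 over these 8 libraries, and it is a description and no test of a treatment. The 133 higher genes had log2 fold changes from 0.96 to 5.03, with a median of 1.90 against -0.01 over all genes tested. In 129 of the 133 the 4 collagen-high libraries all lay above the 4 collagen-low ones in CPM. The 133 were chosen by their p in the same libraries, so that order is largely part of the choice. Over all genes tested 2.51% showed it, while 8.11% showed the opposite order. These orders are in CPM without scaling. The scaling factors of the fit were 0.797 to 0.943 in the collagen-high and 1.045 to 1.177 in the collagen-low libraries. Unscaled CPM therefore place genes lower in the collagen-high libraries than the fit does. The part of scaling in the 2 shares was not tested. In the scaled fit, by unadjusted p under 0.05, 1247 genes (7.86%) were higher and 717 (4.52%) lower. In 122 of the 133 every collagen-high library also lay above every bone control, as in 2218 of the 15864 genes tested. The controls held much more marrow RNA, so this order does not compare like with like. The collagen-low mean lay under the control mean in 49 of the 133. Members of 10 lists of matrix, skeletal and matrix signalling genes made up 48 of the 133 and were 163 of all genes tested. With 0.864% of all genes passing, a short list without a passing gene is no result about that list. The count of passing genes depended on single libraries. It was 1 (Srpx2) without Brx68 replicate 3 and 3 (Srpx2, Col8a2 and Lrrc15) without Brx68 replicate 7, so all other genes said below to pass lost their call when either library was left out. The count was 16 without Brx68 replicate 6, 52 without Brx50 replicate 1, 68 without Brx07 replicate 2 and 84 without Brx68 replicate 1. Of these, 16, 51, 53 and 67 were among the 137. In the 5 Brx68 libraries alone the count was 10, with 5 of them among the 137. With the line as a covariate it was 71, with 65 of them among the 137. All 137 genes kept their direction in all 19 alternative settings. These settings reuse the libraries in which the genes were chosen, so a kept direction is no independent support. DESeq2 called 711 genes, 504 higher and 207 lower.

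Srpx2, a secreted sushi-repeat protein (chrX:133908426-133932446), passed in all 19 alternative settings. It had 57.3, 70.9, 83.7 and 81.7 CPM in the collagen-high libraries and 13.4, 13.2, 12.4 and 10.4 in the collagen-low ones. The collagen-high values lay within a narrow range and the groups were far apart (log2 fold change 2.87, SE 0.23, adjusted p = 0.00396). The bone controls had 9.39, 10.7 and 4.17 CPM, and the 5 other exposed bone libraries 3.83 to 14.4. The largest fold was that of C1qtnf3, a secreted protein of the C1q and TNF family, with 61.6, 89.7, 86.5 and 46.3 CPM against 3.91, 1.71, 0 and 5.05 (log2 fold change 5.03, SE 0.85, adjusted p = 0.0359). Masp1, a protease that starts the lectin pathway of complement, had 54.2, 56.8, 49.4 and 74.5 against 5.96, 9.03, 12.4 and 9.26 CPM (log2 fold change 2.97, SE 0.30, adjusted p = 0.0132). Sod3, the extracellular superoxide dismutase bound to matrix, had 143, 165, 358 and 434 against 51.0, 44.0, 39.2 and 55.0 CPM (log2 fold change 2.81, SE 0.37, adjusted p = 0.0148). Ssc5d, a soluble scavenger receptor, had 189.9, 119, 194 and 249 against 39.8, 42.4, 8.07 and 43.1 CPM (log2 fold change 2.77, SE 0.48, adjusted p = 0.0359). C1qtnf3, Masp1, Sod3 and Ssc5d passed in 8, 16, 15 and 8 of the 19 settings. All 5 genes of this paragraph were named from those whose groups did not overlap, so the gap between the groups is part of that choice.

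The stretches before the start sites of 4 genes that varied together are shown, those of Srpx2, Aspn, Col8a2 and Thbs4. All 4 had a small unadjusted p in the edgeR test (2.5e-07, 8.6e-06, 1.06e-05 and 1.2e-05). Genes such as Masp1, Col6a2 and Fbln1 had a smaller p than Aspn and are not shown. Sequences are those of RefSeq on GRCm38.p6, 150 bases up to the start, 5′ to 3′ on the gene's strand, in lower case with motif matches in capitals.
Srpx2, chrX:133908275-133908424, plus strand: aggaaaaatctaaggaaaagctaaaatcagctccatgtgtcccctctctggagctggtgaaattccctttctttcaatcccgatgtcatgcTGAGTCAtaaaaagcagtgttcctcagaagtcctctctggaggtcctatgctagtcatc
Aspn, chr13:49544293-49544442, plus strand: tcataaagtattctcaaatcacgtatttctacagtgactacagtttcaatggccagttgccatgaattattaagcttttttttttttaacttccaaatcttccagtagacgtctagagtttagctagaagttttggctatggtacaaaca
Col8a2, chr4:126286644-126286793, plus strand: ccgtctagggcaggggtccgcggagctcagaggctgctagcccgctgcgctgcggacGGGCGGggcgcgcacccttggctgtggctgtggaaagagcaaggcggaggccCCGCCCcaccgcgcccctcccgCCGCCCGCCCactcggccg
Thbs4, chr13:92794819-92794968, minus strand: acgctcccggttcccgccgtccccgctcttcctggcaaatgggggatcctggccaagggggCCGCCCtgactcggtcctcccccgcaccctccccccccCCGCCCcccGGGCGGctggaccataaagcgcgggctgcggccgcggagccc
Within these bases Srpx2 has 1 match of TGANTCA, the letters bound by AP-1 proteins, Col8a2 has 4 of GGGCGG, the GC box, Thbs4 has 3 GC boxes, and Aspn has no match. The search also covered the TATA box (TATAAA), the CCAAT box, the RUNX core (TGTGGT) and the TEAD core (GGAATG). It ran on both strands, with overlaps allowed, in the 250 bases before each start. RefSeq windows were found for 90 of the 133 higher genes (105 windows). TGANTCA stood in 4.76% of them and in 4.92% of the windows of all genes tested, GGGCGG in 52.4% and 55.0%, and CCAAT in 28.6% and 34.2%. TGTGGT stood in 13.3% and 10.8%, and GGAATG in 11.4% and 10.9%. TATAAA stood in 13.3% against 7.04% of the windows of genes tested, and in 12.4% of all RefSeq windows. These are matches of letters only, and their differences were not tested.

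Collagen genes other than Col1a1 were high together. All 15 fibrillar and associated collagens were fitted higher in the collagen-high libraries, 11 passed and none was lower, with a list median of 2.18. The 11 that passed had log2 fold changes from 2.02 to 2.70: Col1a2, Col3a1, Col5a1, Col5a2, Col6a1, Col6a2, Col6a3, Col8a1, Col8a2, Col12a1 and Col15a1. Col6a2, a chain of the beaded filaments around cells (chr10:76595762-76623630), had 2153, 1271, 1871 and 1808 CPM against 439.6, 458, 507 and 465 (log2 fold change 2.21, SE 0.24, adjusted p = 0.0132). The collagen-low values lay close together and near those of the controls (468, 453 and 337). Its partner Col6a1, on the same chromosome, had 2255, 1126, 1914 and 1786 CPM against 496, 485, 599 and 489 (log2 fold change 2.06, SE 0.26, adjusted p = 0.0136). Col8a2, a short-chain collagen (chr4:126286793-126314330), had 218, 167, 225 and 224 CPM against 70.5, 59.98, 63.7 and 31.7 (log2 fold change 2.18, SE 0.26, adjusted p = 0.0132). For the summed list, the collagen-high libraries had 54221, 29068, 48295 and 41612 CPM and the collagen-low ones 11919.8, 10138, 15509.6 and 10068, with no overlap. The controls had 15887, 15307 and 8923 CPM, and all 4 collagen-low libraries lay within that range.

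Enzymes and chaperones that process collagen were higher in part. Of 23 members tested 11 passed, all higher, with log2 fold changes from 1.05 to 2.79 and a list median of 1.25. Among the lysyl oxidases Lox, Loxl1, Loxl2 and Loxl3 passed and Loxl4 did not. Lox (chr18:52516067-52529867) had 289.6, 362, 1061 and 641 CPM against 135, 102, 127 and 50.9 (log2 fold change 2.79, SE 0.46, adjusted p = 0.0321). The spread was wide in both groups, without overlap. Loxl2 had 242, 143, 294 and 198 CPM against 50.9, 52.4, 89.0 and 39.2 (log2 fold change 2.20, SE 0.31, adjusted p = 0.0184), and Loxl3 53.4, 46.5, 80.0 and 112 against 26.9, 24.3, 17.7 and 18.6 (log2 fold change 2.02, SE 0.30, adjusted p = 0.0238). Pcolce, the enhancer of procollagen trimming, had 449, 245, 433 and 695 CPM against 141, 108, 56.8 and 117 (log2 fold change 2.38, SE 0.36, adjusted p = 0.0238). The chaperone Serpinh1 (log2 fold change 1.74), the proline 3-hydroxylases P3h1 and P3h3 with their partner Crtap, the lysyl hydroxylase Plod3 and the galactosyltransferase Colgalt1 also passed. The proline 4-hydroxylases P4ha1, P4ha2 and P4ha3, the trimming protease Bmp1 and the helix chaperone Fkbp10 did not pass.

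**Figure D2:**
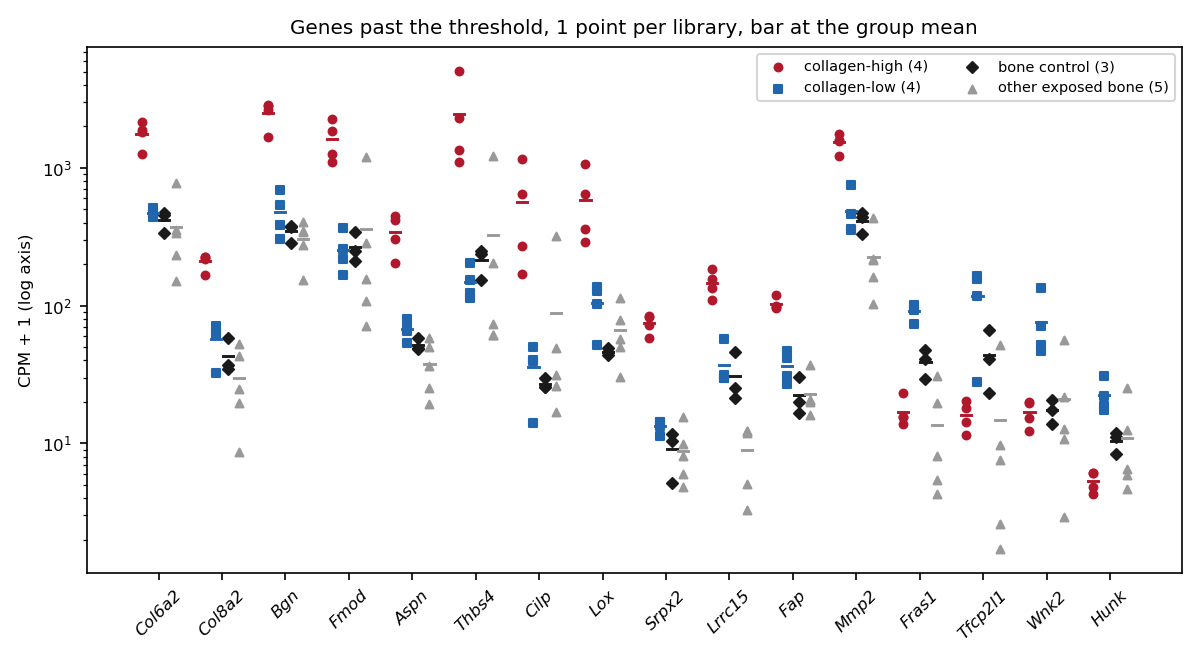
CPM + 1 (log axis) of 16 genes past the threshold, 1 point per library, with a bar at the group mean. The first 12 genes are higher in all 4 collagen-high libraries (red) than in all 4 collagen-low ones (blue), the last 4 are lower, and 1 other exposed bone library (grey) has 1224 CPM of Thbs4 and 1193 CPM of Fmod.

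Some matrix genes typical of tendon, ligament and joint had large folds. Of 12 members 3 passed, Thbs4, Cilp and Fmod, and the list median was 2.37. Thbs4, a thrombospondin of tendon and muscle attachments (chr13:92751590-92794818), had 1344, 1097, 2317 and 5061 CPM in the collagen-high libraries against 122, 153, 113 and 204 in the collagen-low ones (log2 fold change 4.31, SE 0.53, adjusted p = 0.0132). Cilp, a cartilage intermediate layer protein (chr9:65265180-65280605), had 270.3, 168, 648 and 1158 against 39.0, 38.6, 13.2 and 49.3 CPM (log2 fold change 4.25, SE 0.66, adjusted p = 0.0288). Brx68 replicate 6, with its skeletal muscle RNA, was the highest library for both. The 16 muscle genes summed to 1621, 761, 1671 and 31906 CPM in the collagen-high and 236, 1203, 1951 and 1137 CPM in the collagen-low libraries. Without Brx68 replicate 6 the log2 fold change was 3.73 for Thbs4 (adjusted p = 0.0469) and 3.66 for Cilp (adjusted p = 0.0668). Fmod, fibromodulin, a proteoglycan that binds collagen fibrils (chr1:134037254-134048277), had 2246, 1838, 1109 and 1267 CPM against 255, 165, 219 and 368 (log2 fold change 3.00, SE 0.37, adjusted p = 0.0132), and here Brx50 replicate 1 was highest. The tendon transcription factors Scx and Mkx and the tendon membrane protein Tnmd did not pass, and their groups overlapped. Prg4, the lubricin of joint lining, had 364.9 to 1164 CPM against 44.0 to 371 and did not pass (adjusted p = 0.133).

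Of 14 cartilage genes tested only Col11a1, a minor fibrillar collagen, passed and 4 were fitted lower. Col11a1 had 557, 589, 478 and 345 CPM against 159.9, 132, 176 and 101 (log2 fold change 2.11, SE 0.29, adjusted p = 0.0175). Col2a1, the main cartilage collagen, had 686, 582, 573 and 2.69 CPM in the collagen-high libraries and 449.7, 13.8, 0 and 9.35 in the collagen-low ones. The library with the least Col2a1 among the collagen-high ones was Brx68 replicate 6, and the skull library was high among the collagen-low ones, so the groups overlapped (adjusted p = 0.678). Comp, a cartilage and tendon matrix protein, had 524, 231, 366 and 244 CPM against 152, 54.4, 18.5 and 38.7, without overlap, and did not pass (adjusted p = 0.0839).

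Small proteoglycans and fibroblast genes were the other broad group. All 19 members were fitted higher, 8 passed, 13 had groups without overlap, and the list median was 2.13. Over all genes tested 0.838% passed as higher and 2.51% were higher without overlap. Bgn, biglycan (chrX:73483602-73495933), had 1685, 2883, 2804 and 2612 CPM against 536, 306, 690.5 and 382 (log2 fold change 2.71, SE 0.35, adjusted p = 0.0146). Aspn, asporin, which binds collagen (chr13:49544443-49567565), had 204, 449, 415 and 306 against 64.4, 52.8, 78.5 and 69.2 (log2 fold change 2.70, SE 0.32, adjusted p = 0.0132). Prelp, which anchors collagen to basement membrane, had 610.5, 549.6, 592 and 746 against 112, 124, 28.1 and 118 (log2 fold change 3.00, SE 0.44, adjusted p = 0.0238). Fbln1, a fibulin of elastic and basement membrane matrix, had 526, 396, 533 and 692 against 185, 117, 177 and 120.0 (log2 fold change 2.13, SE 0.25, adjusted p = 0.0132). Every collagen-high library lay above every control in these 4 genes, whose control ranges were 285.5 to 380.5 CPM for Bgn, 47.8 to 57.5 for Aspn, 83.6 to 98.9 for Prelp and 139 to 157 for Fbln1. For Prelp a collagen-low library, Brx68 replicate 1, lay far below the others. Dcn, Lum, Mfap4 and the surface protein Thy1 also passed, and Pdgfra and Pdgfrb, the receptors that mark fibroblasts and pericytes, did not. In these bulk libraries fewer cells of a type and less RNA per cell cannot be told apart.

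Matricellular genes and genes of activated fibroblasts passed in 7 of 17 members, with a list median of 1.82. Fap, a surface protease of activated fibroblasts (chr2:62500943-62574075), had 118, 94.3, 96.2 and 97.6 CPM against 46.1, 40.6, 25.9 and 29.6 (log2 fold change 1.81, SE 0.23, adjusted p = 0.0146), with 29.4, 19.0 and 15.7 in the controls. Lrrc15, a membrane protein of TGF-beta-exposed fibroblasts (chr16:30269302-30283256), had 133, 156, 182 and 109 CPM against 28.8, 29.0, 30.3 and 56.3 (log2 fold change 2.31, SE 0.31, adjusted p = 0.016). Brx68 replicate 7 stood above the other collagen-low libraries and below all collagen-high ones. Sparc, a collagen-binding protein of bone and fibroblasts, had 4893, 3809.7, 4639 and 3392 CPM against 1178, 654, 1691 and 1133 (log2 fold change 2.15, SE 0.33, adjusted p = 0.0242). Fn1, Postn, Ccn2 and Aebp1 also passed. Acta2 and Tagln, contractile genes of myofibroblasts and smooth muscle, were fitted at -0.58 and -0.62 and did not pass.

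Of 14 TGF-beta genes 3 passed, a ligand, a receptor and a target, and the list median was 1.07. The ligand Tgfb3 had 139.8, 126, 204 and 224 CPM against 61.7, 80.8, 82.4 and 106 (log2 fold change 1.34, SE 0.26, adjusted p = 0.0491). The type 2 receptor Tgfbr2 had 340.0, 354, 662 and 699 against 233, 230.2, 227 and 190.3 (log2 fold change 1.504, SE 0.28, adjusted p = 0.046). The target and feedback inhibitor Pmepa1 had 204, 241, 257 and 287 against 88.5, 142, 91.8 and 101 (log2 fold change 1.51, SE 0.25, adjusted p = 0.0321). Here the collagen-low libraries lay at or above the controls, which had 52.1, 37.7 and 36.2 CPM of Pmepa1. Tgfb1, Tgfb2 and Smad7 did not pass (log2 fold changes of 0.62, 0.28 and -0.12). Among 18 BMP and WNT regulators the BMP antagonist Chrdl1 alone passed, with 46.9, 77.2, 69.3 and 90.1 CPM against 23.9, 17.7, 4.296 and 12.6 (log2 fold change 2.59, SE 0.47, adjusted p = 0.0412). The WNT antagonist Sfrp2 had 217, 151, 278 and 138 CPM against 60.7, 198, 1016 and 198, so that its highest value was in a collagen-low library.

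Basement membrane genes passed in 3 of 12 members. Col4a1, a chain of network collagen, had 2791, 3852, 3722 and 4557 CPM against 738, 1307, 1318 and 1539 (log2 fold change 1.90, SE 0.33, adjusted p = 0.0359). The laminin chains Lamb1 and Lamc1 had log2 fold changes of 1.32 and 1.48 (adjusted p = 0.0359 and 0.0412). Among 16 proteases and inhibitors 3 passed. The gelatinase Mmp2 had 1566, 1216, 1770.0 and 1595 CPM against 464, 352, 756 and 359 (log2 fold change 1.97, SE 0.30, adjusted p = 0.0242), its inhibitor Timp2 1271, 802, 1179.5 and 1026 against 467, 414, 711 and 448 (log2 fold change 1.36, SE 0.26, adjusted p = 0.0489), and Mmp23 35.3, 25.6, 33.7 and 37.7 against 12.9, 17.8, 11.1 and 9.10 (log2 fold change 1.66, SE 0.28, adjusted p = 0.0359). The interstitial collagenase Mmp13 overlapped between the groups (328.7 to 684.5 CPM against 66.2 to 601) and did not pass.

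None of 16 osteoblast and osteocyte genes passed, against 0.838% of all genes tested that passed as higher. The list median was 0.75, and 3 members were higher without overlap, against 2.51% of all genes tested. Runx2, the transcription factor that sets the osteoblast fate, had 51.1 to 121 CPM in the collagen-high and 47.0 to 132 CPM in the collagen-low libraries (log2 fold change 0.15, adjusted p = 0.930). The mineral-binding protein Ibsp had 249, 537, 188 and 94.2 CPM against 66.1, 23.1, 62.9 and 15.2 and did not pass (log2 fold change 3.06, SE 0.67, adjusted p = 0.0851). Spp1, osteopontin, had 251, 207, 438 and 339 against 143, 68.9, 88.9 and 27.6 and did not pass either (log2 fold change 2.21, SE 0.44, adjusted p = 0.0598). Both had groups without overlap. The osteocyte genes Sost and Mepe were under 1 CPM in all 8 libraries. Of 9 osteoclast genes tested Ctsk, the collagen-degrading cathepsin (chr3:95499256-95509362), passed with 98.5, 110.3, 105 and 90.0 CPM against 27.8, 16.3, 57.5 and 23.0 (log2 fold change 2.01, SE 0.37, adjusted p = 0.0412). The osteoclast list had a median of 1.29, with 8 genes fitted higher and 4 higher without overlap. Acp5, the osteoclast acid phosphatase, had 52.0 to 104 CPM against 13.9 to 50.9, without overlap, and did not pass (adjusted p = 0.134). The 3 genes of the RANK ligand axis did not pass.

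Further genes that passed, chosen after their values were seen, encode secreted enzymes, complement and growth factors. Serping1, the inhibitor of the first complement proteases, had 705, 826, 1188 and 1614 CPM against 325, 255, 256 and 229 (log2 fold change 2.31, SE 0.30, adjusted p = 0.0146). Plat, the tissue plasminogen activator, had 202, 205, 202 and 229.9 against 101, 89.3, 100.0 and 81.9 (log2 fold change 1.48, SE 0.18, adjusted p = 0.0132). Serpinf1, a secreted factor of fibroblasts and bone cells, had 694, 517, 518 and 645 against 189.6, 93.5, 200.5 and 155 (log2 fold change 2.20, SE 0.27, adjusted p = 0.0132). Cd276, a membrane protein of the B7 family, had 74.0, 72.0, 83.0 and 84.0 against 35.3, 25.7, 24.6 and 29.3 (log2 fold change 1.75, SE 0.19, adjusted p = 0.0132). Fgf7, a fibroblast factor that acts on epithelium, had 31.1, 35.9, 55.5 and 58.9 against 12.1, 17.0, 8.85 and 6.65 (log2 fold change 2.30, SE 0.36, adjusted p = 0.029). The groups did not overlap in any of these 5. The chemokine Ccl7, the only one of 15 cytokine genes to pass, had 55.1, 140.5, 168 and 76.8 against 25.2, 38.6, 16.3 and 15.7 (log2 fold change 2.51, SE 0.46, adjusted p = 0.0417). Cd34, listed with blood progenitors and also expressed by endothelial cells and fibroblasts, had 444, 387, 484 and 608 against 185, 228, 138 and 192 (log2 fold change 1.66, SE 0.25, adjusted p = 0.0238) and was the only one of 10 progenitor genes to pass.

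The 4 genes with lower levels in the collagen-high libraries were Fras1, Tfcp2l1, Hunk and Wnk2. Fras1, a matrix protein of the epithelial basement membrane (chr5:96373955-96784728), had 22.3, 12.8, 14.4 and 14.4 CPM against 72.1, 99.8, 98.3 and 91.5 (log2 fold change -2.21, SE 0.25, adjusted p = 0.0132) and passed in 16 of 19 alternative settings. Its collagen-low values lay above the controls (39.7, 46.5 and 28.1) and its collagen-high values below them. Tfcp2l1, a transcription factor of ducts and kidney tubules, had 19.4, 13.3, 10.6 and 17.1 against 117, 26.9, 164 and 156 (log2 fold change -2.63, SE 0.49, adjusted p = 0.0463). The kinase gene Hunk had 5.06, 3.78, 5.11 and 3.26 against 29.8, 17.8, 21.2 and 16.3 (log2 fold change -1.996, SE 0.34, adjusted p = 0.0359), and the kinase gene Wnk2 14.4, 11.3, 19.0 and 18.6 against 134, 45.9, 50.6 and 70.3 (log2 fold change -1.95, SE 0.34, adjusted p = 0.0377). Tfcp2l1, Hunk and Wnk2 passed in only 6, 7 and 8 of the 19 settings. Next by p and not passing were Cobl, Bcl11a, Myb and Patj (adjusted p = 0.0568, 0.0589, 0.0595 and 0.0598). The 15 epithelial markers summed to 86.5, 768, 263 and 42.5 CPM in the collagen-high libraries and 1336, 518, 883 and 1308 in the collagen-low ones, and the sums overlapped. Of 14 tested none passed, 13 were fitted lower and 1 higher (list median -1.33). Epcam and Cdh1 were above 0 in all 8 libraries. Their part in the lower genes was not tested.

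**Figure D3:**
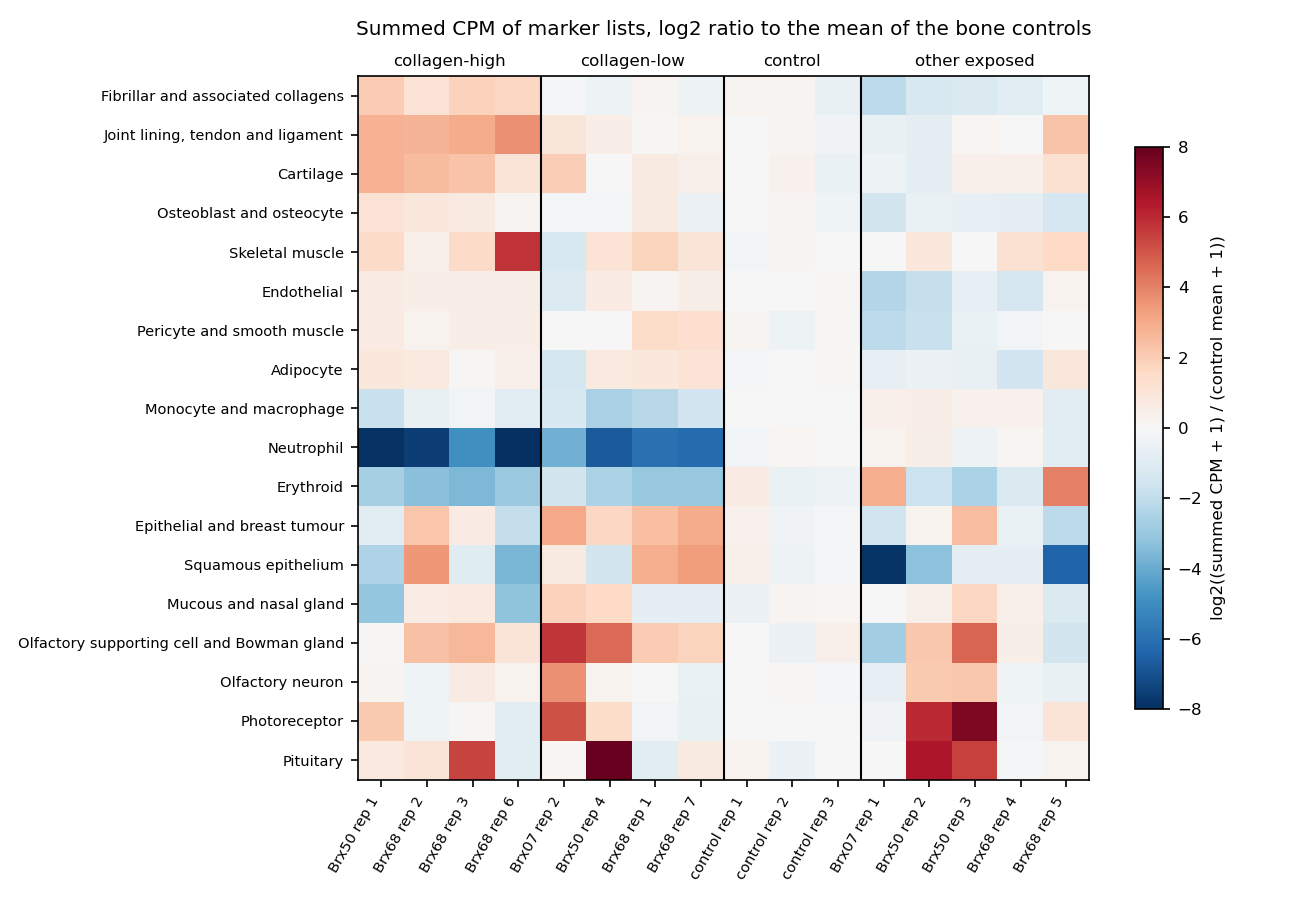
Summed CPM of 18 marker lists in 16 bone libraries, as log2 of (summed CPM + 1) over (mean of the bone controls + 1), with columns grouped into collagen-high, collagen-low, control and other exposed. The collagen and joint lists are red in the 4 collagen-high columns, the neutrophil list is blue in all 8 marrow-poor columns, and the skeletal muscle, olfactory neuron and pituitary lists have their highest columns in Brx68 replicate 6, Brx07 replicate 2 and Brx50 replicate 4.

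Markers of other cell types follow. All 15 monocyte and macrophage genes were fitted higher in the collagen-high libraries, with a median of 2.08, and none passed. Their summed level was 1615, 3748, 4898 and 3149 CPM in the collagen-high libraries, 2436, 949.6, 1197 and 1956 in the collagen-low ones and 5417 to 5842 in the controls. No gene of the list was at 0 in a collagen-high library. Fcgr1 and Ccr2 were at 0 only in Brx68 replicate 1, the collagen-low library with the fewest genes with a count (14769). The part of the macrophage list in the matrix results was not tested. Endothelial genes summed to 4128, 3698, 3777 and 3721 against 1227, 4128, 2949 and 3518 CPM, with an overlap, and the lowest value was in the skull library. None of the 11 list members tested passed (list median 0.67). Outside the list, and chosen after their values were seen, a pair of vessel genes passed. Plvap, of fenestrated endothelium, had 205, 571, 449 and 389 CPM against 109.9, 87.0, 137 and 124 (log2 fold change 2.15, SE 0.35, adjusted p = 0.0321). Lyve1, a hyaluronan receptor of lymphatic endothelium and some macrophages, had 70.6, 50.2, 112 and 90.7 CPM against 15.55, 28.7, 27.6 and 21.6 (log2 fold change 2.06, SE 0.30, adjusted p = 0.0236). Pericyte and smooth muscle genes overlapped, with 2052, 1562, 1861 and 1885 against 1342, 1354, 3607 and 3309.7 CPM. Neutrophil genes other than S100a8 were low in all 8 libraries, which were chosen by that gene, with sums of 133 to 1195 CPM in the collagen-high and 346 to 2473 CPM in the collagen-low ones against 31386 to 40308 CPM in the controls. Squamous epithelium reached 13735 CPM in Brx68 replicate 2 (collagen-high) and 9331 and 12370 CPM in Brx68 replicates 1 and 7 (collagen-low). Mitochondrial transcripts summed to 38479, 11033, 9734 and 6329.9 CPM in the collagen-high libraries and 8856, 1548, 11359 and 6959 in the collagen-low ones. Brx50 replicate 1 was the highest and the other 3 collagen-high libraries lay within the collagen-low range. All 8 transcripts tested were fitted higher (list median 1.71) and none passed.

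**Figure D4:**
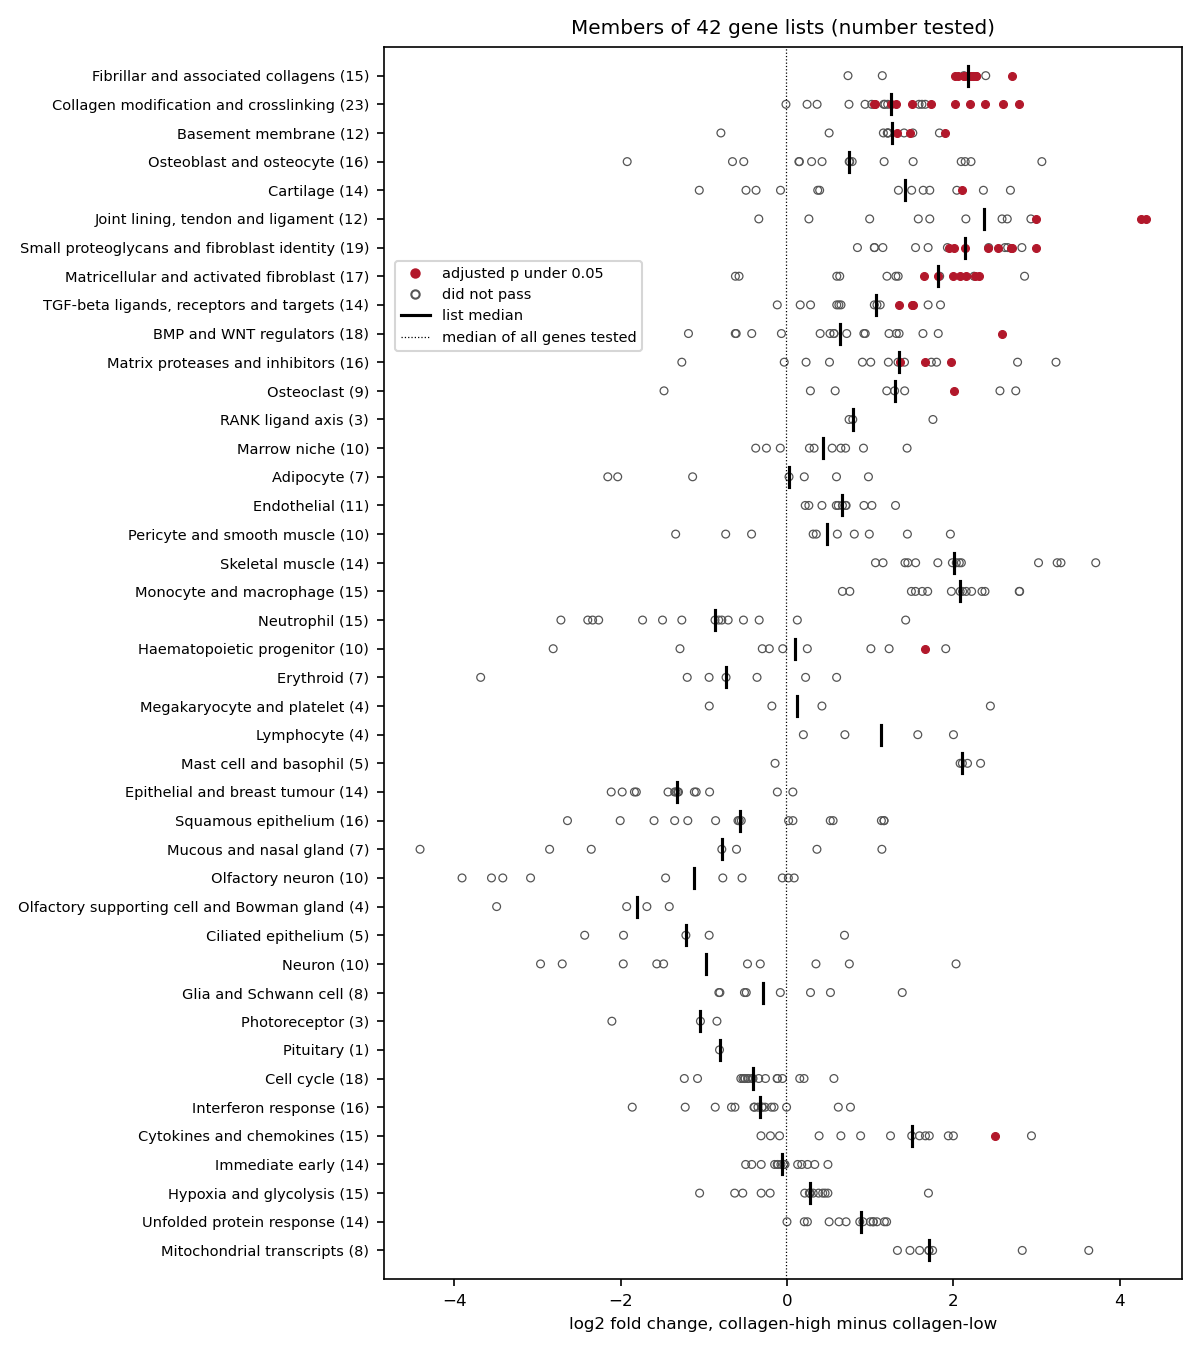
Log2 fold change (collagen-high minus collagen-low, edgeR) of each tested member of 42 gene lists, with the number tested in parentheses. Filled red points passed an adjusted p of 0.05, open points did not, black bars are list medians and the dotted line is the median of all genes tested (-0.01); filled points are mostly in the collagen, proteoglycan and fibroblast lists.

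Among processes, no member passed for cell cycle (18 tested, list median -0.42), interferon response (16, -0.33), immediate early genes (14, -0.06), hypoxia and glycolysis (15, 0.27) or the unfolded protein response (14, 0.89). Over all genes tested 0.864% passed. The chaperones Calr and Hsp90b1 of the secretory pathway were higher in every collagen-high than in any collagen-low library without passing (adjusted p = 0.0983 and 0.0942). Interferon genes summed to 2985 CPM in the skull library and to at most 876 CPM in the other 7.

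A library outside the rule was high for some of the same genes, which were picked after their values were seen. It was Brx68 replicate 5, an exposed bone library whose neutrophil genes summed to 20059.5 CPM and whose erythroid genes summed to 13921 CPM. This library had 1224 CPM of Thbs4, 318 of Cilp, 1193 of Fmod, 395 of Prelp and 401 of Comp. Each value exceeded all 4 collagen-low libraries and all 3 controls, and for Thbs4, Cilp, Fmod and Comp it lay within the collagen-high range. For Srpx2 (14.4 CPM), Aspn (57.2) and Lrrc15 (11.3) the same library lay near or below the collagen-low libraries. Its small proteoglycan and fibroblast genes summed to 12630 CPM, within the collagen-high range (12084 to 23816 CPM). Its fibrillar and associated collagens summed to 10537 CPM, within the collagen-low range (10068 to 15509.6 CPM). These values come from 1 sample without a replicate of its kind, and marrow RNA takes up part of its CPM.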

How the data were processed

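RNA was measured in sorted GFP-negative cells. The authors deposited a table of raw counts for 43346 mouse gene IDs with 1 column per library, used here as deposited. The tools listed, per the submitters' processing notes, are HTSeq and STAR 2.5.2b, with 4 builds (GRCm38.p5, mm10, GRCh37 and hg19) and no role for any. The sources used here do not state annotation, strand or how human reads were removed. Overlapping and antisense genes may therefore share reads, and near-identical copies (hemoglobin and osteocalcin genes) are uncertain. GENCODE M21 (GRCm38) gave symbols and coordinates for 42462 IDs, and the 884 others held 0.132% of counts.

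Groups followed the labels (tissue, exposure, line) and the 2 measured limits given above. Replicate numbers of exposed libraries follow accession order. The members and all gene lists were chosen with earlier results of these data known. The 8 libraries were fitted alone with edgeR 4.0.16 in R 4.3.3: TMM scaling, filterByExpr, robust quasi-likelihood F-test, two-sided, Benjamini-Hochberg adjustment over 15864 genes, threshold 0.05 and no limit on fold. Col1a1 and S100a8 were not tested but stayed in library totals. CPM use unscaled totals and are not divided by gene length, so they are compared between libraries only. Named genes were up to 10 per direction past the threshold by fold, with at least 10 CPM in the higher group and no overlap. With fewer than 6 in a direction, the 8 smallest p were added. Each of 42 lists gave up to 3 members, by p and then by level. Genes named beyond these were chosen after their values were seen, among list members and genes past the threshold. Pseudogenes, receptor segments, Gm and Rik symbols and IDs lacking a symbol were not named.

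Totals of 7058861 to 15646947 counts set the depth, and a count of 0 allows up to 3 counts, a limit from counting error only. Libraries of a group all differed by more than sampling noise (smallest chi-square per degree of freedom 71.8, genes with at least 40 counts). The fit was tested on simulated data with known changes. It recovered 0 of 59 changes of 2-fold, 26 of 65 of 4-fold and 61 of 76 of 16-fold, with 5 false calls among 15864 genes. A gene said not to pass may therefore still differ between the groups. Alternatives were other scalings (RLE, upper quartile, none), no low count filter, the 2 rule genes kept, all 16 bone libraries, the line as a covariate, Brx68 alone, each library left out, DESeq2 1.42.0 and limma-voom (limma 3.58.1). Promoter windows and their sequences came from RefSeq (GRCm38.p6).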

Additional observations from a re-analysis of the deposited data

Results flagged for a closer look

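Among 298 groups of 4 libraries (107 genes named above and 42 lists, in each group), 20 held a library far from the other 3 (a gap to the nearest above Dixon's critical share of the group's range, on the log2(CPM + 1) scale). Chance flags about 1 in 20 groups. In the collagen-low group Brx68 replicate 1 stood apart for Prelp (28.1 CPM against 112 to 124.5 in the other 3), Ssc5d (8.07 against 39.8 to 43.1), Scx (0 against 6.74 to 7.88), Mkx (55.7 against 12.04 to 14.7), Col6a1 (599 against 485 to 496.5) and Col8a1 (146 against 62.2 to 66.4). Brx68 replicate 7 stood apart for Lrrc15 (56.3 CPM against 28.8 to 30.3), Tgfbr2 (190.3 against 227 to 233) and Pdgfra (161 against 231 to 238). The skull library, Brx07 replicate 2, stood apart for Mfap4 (49.9 CPM against 14.6 to 17.6), Patj (106 against 49.9 to 54.3) and the summed adipocyte genes (180.4 against 802 to 1035). Brx50 replicate 4 stood apart for Serpinh1 (169 CPM against 335 to 348) and Sost (0.800 against 0 to 0.0978).

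In the collagen-high group Brx68 replicate 6 stood apart for Col2a1 (2.69 CPM against 573 to 686) and Plat (229.9 against 202 to 205). Brx50 replicate 1 stood apart for Fap (118 CPM against 94.3 to 97.6), Calr (577.5 against 637 to 648) and the summed cell cycle genes (282 against 393.5 to 419). Brx68 replicate 2 stood apart for Col8a2 (167 CPM against 217.5 to 225).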

How the results depend on the processing

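The count of genes past the threshold (137, of which 133 higher and 4 lower in the collagen-high libraries) moved with most choices. With RLE scaling it was 87 (84 higher), with upper quartile scaling 73 (68 higher) and without scaling 27 (24 higher), and these scalings moved the median of all genes from -0.01 to -0.07, -0.11 and -0.30 on the log2 scale. Without the low count filter it was 227 (30 lower), with all 16 bone libraries 362 (327 higher, 35 lower), with the line as a covariate 71 (68 higher), in Brx68 libraries alone 10 (8 higher, 2 lower) and without the library of each group with the fewest genes 9 (9 higher, 0 lower). DESeq2 called 711 (504 higher, 207 lower, or 70.9% higher against 97.1% here) and limma-voom 316 (274 higher, 42 lower). Leaving out 1 library at a time gave 1 to 96 genes, 1 to 89 higher and 0 to 7 lower. Where no lower gene passed, 0 is the count by edgeR, and 1817, 1412 and 1948 genes had an unadjusted p under 0.05 in either direction (without the 2 libraries with the fewest genes, Brx68 replicate 3 and Brx68 replicate 7). The causes were not tested. The settings reuse the libraries in which the 137 genes were chosen, so a kept direction or a small p is no independent support. All 137 genes kept their direction, with an unadjusted p under 0.05, in all 19 settings. For the 70 of them named here, 723 of 1330 gene and setting pairs stayed past the threshold. By gene this ran from 4 settings (Colgalt1 and Lamc1) to 19 (Srpx2). The medians of the matrix, osteoblast, macrophage, endothelial, neutrophil and epithelial lists kept their sign in all 19 settings. That of the adipocyte list changed sign in 12, and those of the squamous, interferon and mucous and nasal gland lists in 3 each. The olfactory neuron and pituitary medians changed sign in 4 settings each, and the immediate early and blood progenitor medians in 2 each. Those of the cell cycle, hypoxia and glycolysis, and pericyte and smooth muscle lists did so in 1 each. Some lists not described above changed sign too. No paired analysis was possible because replicate numbers of exposed libraries follow accession order, and the labels do not say what the number codes in their titles stand for (the leg and skull libraries of Brx07 share one, and only the skull library is among the 8). How depth limits the calls was not tested.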
